A study of Drosophila melanogaster with 12 samples.

Results

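Genes that turn Cdk1 on, keep its targets phosphorylated and later remove its cyclins were followed in cells sorted by DNA content. They were chosen as the probe sets that name 1 gene only and whose gene is CycB, CycB3, twe, gwl, endos, Cks30A, Cks85A, fzy or fzr. All 9 genes were found, of 11981 genes that have a probe set of their own. They had 11 such probe sets, 1 for each of 8 genes and 3 for fzy. The 9 brightest, 1 per gene, passed the filter on low values (log2 intensity 5 or more on 3 or more of the 12 arrays), and the 2 dimmer fzy probe sets did not.

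Entry into mitosis depends on the kinase Cdk1 bound to a mitotic cyclin. A phosphatase of the Cdc25 family activates it, and small Cks proteins help it bind its targets. The kinase Greatwall phosphorylates Endosulfine, which then inhibits the phosphatase PP2A with its Tws subunit and so protects the Cdk1 phosphorylations. The anaphase-promoting complex, a ubiquitin ligase, ends mitosis by marking cyclins for destruction. Its activator Fizzy (Cdc20) works in mitosis, and Fizzy-related (Cdh1) works from late mitosis into G1. In flies fzr is known to be needed for cells to stop dividing and to enter endocycles.

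Transcripts were read on Affymetrix arrays for Drosophila, where a probe set gives 1 intensity for a transcript. Wing discs, which form the adult wing, were dissected from OreR larvae at the wandering stage of instar 3, grown at 25 °C. S2 is a cell line first grown from fly embryos, and resembles haemocytes (blood cells). It was used before passage 30. The 4 groups were wing disc G2 and S2 G2, sorted from a 4C gate that also holds mitotic cells, and wing disc G1 and S2 G1, sorted from a 2C gate. Each group held 3 arrays, numbered 2, 3 and 4 for the disc and 4, 5 and 6 for S2. Per the labels no group carried an added allele or drug. Nothing states that the 3 arrays of a group are separate biological samples, and the p-values then describe a spread that may be technical.

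Median intensity per array was 18.0 to 20.6. Each labelling began with 100 ng of total RNA, so levels are relative to the RNA of a fraction and not to a cell. In sorted fractions, fewer cells of a type and less RNA per cell cannot be told apart. Of 9 wing disc epithelium markers with a probe set, 9 had a mean log2 value of at least 5 in disc G2 and in disc G1, and 3 did in each S2 group (vg, nub, en, hh, ci and eyg were under it there). Compared between cell types in each gate, 7 of the 9 were higher in the disc and 2 were lower (adjusted p under 0.05). The lowest difference, disc minus S2, was -3.23 in G1 and -2.24 in G2 (log2). Of all probe sets, 77.1% differed in G1 and 76.3% in G2. Of 10 haemocyte markers, 9 reached it in both S2 groups, with NimC1 under it. Markers of other cells were also read in the disc fractions, at unequal levels. The summed intensity of 4 adult muscle precursor markers (twi, htl, Him and zfh1) was 2124 to 4797 in disc G2 and 7602 to 9993 in disc G1. That of the 10 haemocyte markers was 2316 to 2947 in disc G2 and 6224 to 8614 in disc G1, while 5 tracheal markers had 3173 to 3409 in disc G2 and 2047 to 2530 in disc G1. In disc G2 the haemocyte markers srp and eater were under 5, and in disc G1 srp, NimC1 and eater. Of the tracheal markers (btl, verm, serp, vvl and uif), btl was under 5 in both disc groups. The part of these cells in the disc differences below was not tested.

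The 9 genes were read in both cell types. In S2 cells CycB, CycB3, Cks30A, gwl and fzr rose in G2, by 1.70-fold to 2.00-fold. In the wing disc CycB, fzr and gwl lay higher in G2 on every array, by 1.39-fold, 1.39-fold and 1.35-fold. These 3 did not pass, although CycB and fzr did with replicate number as a block. twe fell in disc G2, where it is near background, and it passed the filter on low values through disc G1 alone. For endos, Cks85A and fzy the test found no difference between the gates in either cell type.

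**Figure D1:**
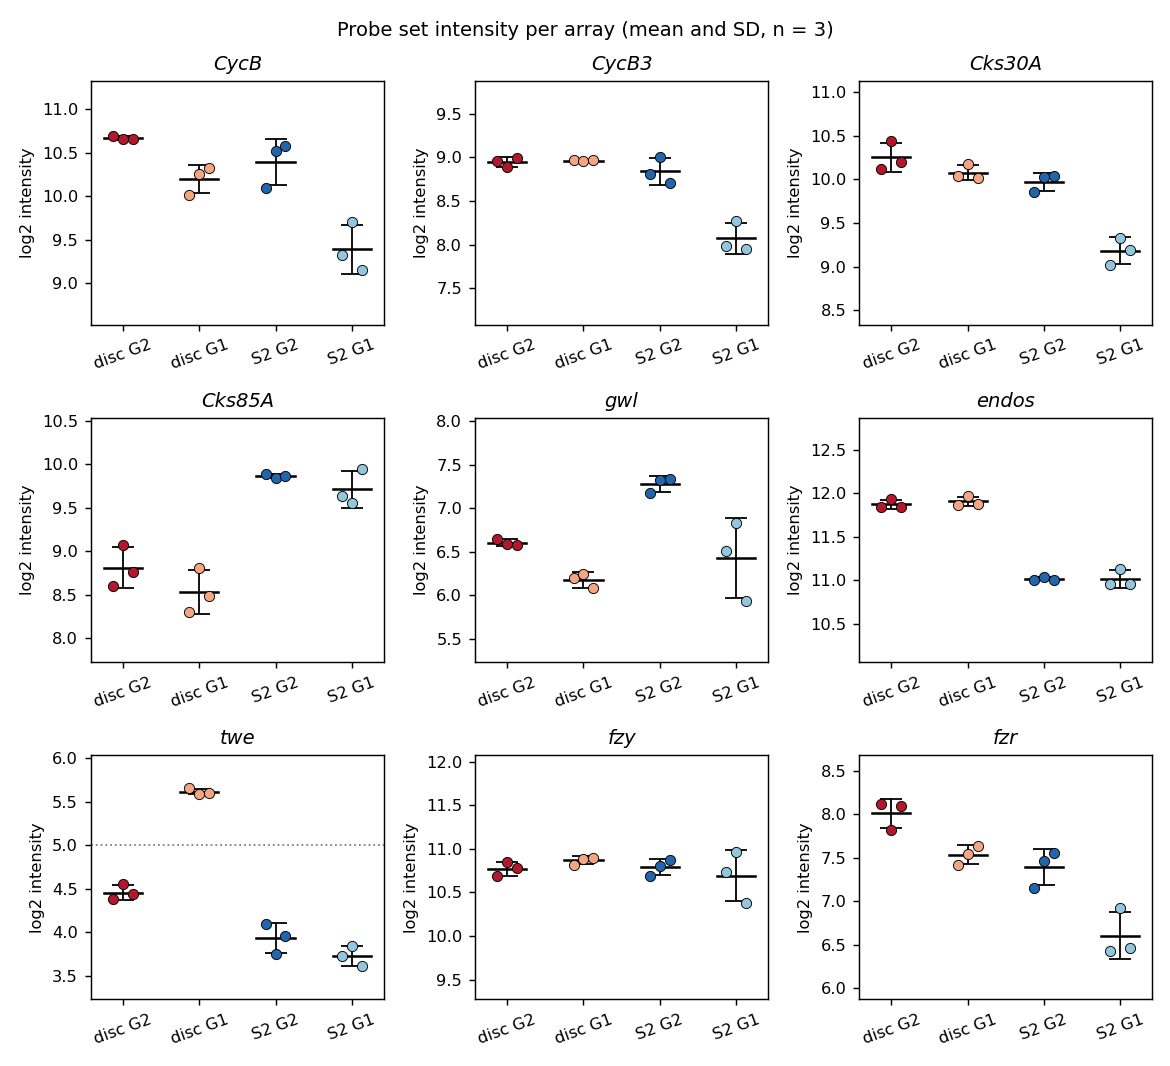
Each panel plots the log2 intensity of 1 gene on every array (points) with the mean and SD of its group (n = 3), and all panels span the same range of the log2 scale. In the panels of CycB, CycB3, Cks30A and fzr the S2 G1 arrays lie below all others, in those of endos and Cks85A the cell types stand apart, and twe reaches 5 (dotted line) in disc G1 only.

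CycB (CG3510) encodes a B-type cyclin, one of the mitotic cyclins that bind Cdk1. Its log2 intensity was 10.69, 10.66 and 10.65 on the disc G2 arrays, against 10.02, 10.25 and 10.32 on the disc G1 arrays. The disc G2 arrays lay close together and all above the disc G1 arrays. The difference was 0.47 ± 0.16 (log2, SE of the fit, n = 3 arrays per group), with a 95% interval of 0.13 to 0.81 and a limma adjusted p = 0.0783. It passed in the fit with a replicate block (adjusted p = 0.0473), and also without S2 G2 array 4 (adjusted p = 0.0496) or S2 G1 array 5 (adjusted p = 0.0443). Those S2 arrays enter only the shared spread, and the disc difference stayed at 0.47. With any other single array left out it did not pass (adjusted p up to 0.229).

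In S2 cells CycB read 10.09, 10.52 and 10.57 in G2, against 9.32, 9.70 and 9.15 in G1. No arrays overlapped, and the rise was 1.0 ± 0.16, or 2.00-fold (adjusted p = 0.00277). Of the 8580 probe sets tested, 44 rose more than CycB in S2 G2. The 4 groups ran, from high to low, disc G2, S2 G2, disc G1 and S2 G1. S2 G2 overlapped with disc G1, and disc G2 lay above S2 G2 on every array with a difference that did not pass (0.28 ± 0.16, adjusted p = 0.123).

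CycB3 (CG5814) encodes the other B-type cyclin, known in flies to act in anaphase and in female fertility. In the disc its values were almost level, with 8.96, 8.89 and 9.0 in G2, against 8.97, 8.96 and 8.97 in G1. The difference was -0.01 ± 0.10, and its 95% interval of -0.24 to 0.21 leaves out a change as large as that of S2 cells. There CycB3 read 8.81, 9.01 and 8.70 in G2, against 7.99, 8.27 and 7.95 in G1. That is a rise of 0.77 ± 0.10, or 1.70-fold (adjusted p = 0.00148), with no overlap and a rise of 0.73 to 0.82 in all 3 same-numbered pairs.

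The test of the disc change minus the S2 change gave -0.78 ± 0.15 for CycB3 (adjusted p = 0.0105), so the phase change itself differed between the cell types. The same test for CycB gave -0.53 ± 0.22 (adjusted p = 0.226), and did not pass. The order of CycB3 levels was disc G1, disc G2, S2 G2 and S2 G1, and the first 3 groups overlapped.

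Cks30A (CG3738) and Cks85A (CG9790) encode the Cks proteins of the fly. Cks30A is known for its role in female meiosis and the early embryo, and Cks85A for roles in growing tissues. Cks30A read 10.12, 10.44 and 10.20 in disc G2, against 10.04, 10.18 and 10.01 in disc G1. The ranges overlapped and the difference was 0.18 ± 0.11 (adjusted p = 0.362). In S2 cells Cks30A read 9.86, 10.03 and 10.04 in G2, against 9.02, 9.33 and 9.19 in G1. This was a rise of 0.79 ± 0.11, or 1.73-fold (adjusted p = 0.00165), with no overlap.

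The change of Cks30A differed between the cell types (-0.62 ± 0.16, adjusted p = 0.0431). That call was lost without any of 9 of the 12 arrays in turn, with adjusted p up to 0.108. Its levels ran disc G2, disc G1, S2 G2 and S2 G1, disc G1 overlapping with both disc G2 and S2 G2. For CycB, CycB3, Cks30A and fzr alike, every S2 G1 array lay below every array of the other 3 groups.

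Cks85A behaved unlike Cks30A. It read 8.60, 9.07 and 8.76 in disc G2, against 8.31, 8.81 and 8.49 in disc G1. The ranges overlapped, although in each same-numbered pair G2 was higher by 0.26 to 0.29. The difference was 0.28 ± 0.15 (adjusted p = 0.289, or 0.0642 with the replicate block). In S2 cells it read 9.89, 9.84 and 9.86 in G2, against 9.64, 9.55 and 9.95 in G1 (0.15 ± 0.15, adjusted p = 0.614). Its order was S2 G2, S2 G1, disc G2 and disc G1, and the gates overlapped within each cell type.

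twe (CG4965) encodes Twine, the Cdc25 phosphatase known for male and female meiosis and for the early embryo. The Cdc25 of most somatic divisions, stg, was not analysed here. twe read 4.39, 4.55 and 4.43 in disc G2, against 5.65, 5.59 and 5.60 in disc G1. The fall of 1.16 ± 0.10 on the log2 scale (adjusted p = 1.36e-05) leaves 0.448 times the G1 intensity. Every disc G2 array lay below 5, near background, which limits the size of the fall.

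twe passed the filter through its disc G1 arrays alone, so that a difference from the other groups follows in part from the filter. With no filter the adjusted p of its fall in the disc was 8.6e-06. In S2 cells it was near background on every array, with 4.09, 3.75 and 3.96 in G2, against 3.73, 3.84 and 3.61 in G1. The difference there was 0.20 ± 0.10 (adjusted p = 0.246) and the ranges overlapped. The disc change differed from the S2 change by -1.36 ± 0.14 (adjusted p = 0.000539, or 0.000405 with no filter), a size that rests on 3 groups under 5. The 3 germline markers with a probe set (vas, bam and aub) had a summed intensity of 55.5 to 77.7 in disc G2 and 91.5 to 109.4 in disc G1, and vas was under 5 in all 4 groups. In both disc groups aub was under 5, and bam was under 5 in disc G2. The sum was far higher in S2 cells, where twe was near background. It was 1459 to 1525 in S2 G2 and 1323 to 1812 in S2 G1, with bam and aub over 5 in both.

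gwl (CG7719) encodes the Greatwall kinase. It read 6.65, 6.59 and 6.58 in disc G2, against 6.20, 6.25 and 6.08 in disc G1. All disc G2 arrays lay above the disc G1 arrays. The difference of 0.43 ± 0.17 did not pass (adjusted p = 0.151, 95% interval 0.05 to 0.81). It passed when the disc groups alone were fitted (adjusted p = 0.0162) and without S2 G1 array 6 (adjusted p = 0.0144). With any other single array left out it did not pass (adjusted p up to 0.324). The SD of gwl was 0.46 in S2 G1, against 0.04 in disc G2 and 0.09 in disc G1, and all groups share 1 estimate of the spread.

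In S2 cells gwl read 7.18, 7.32 and 7.34 in G2, against 6.51, 6.84 and 5.93 in G1. The G2 arrays were close together, and G1 array 6 lay well below the other G1 arrays. The rise was 0.86 ± 0.17, or 1.81-fold (adjusted p = 0.0104). Without that array it was 0.61 (adjusted p = 0.00655), and with the S2 groups fitted alone the call was lost (adjusted p = 0.0632). The difference in change between the cell types did not pass (-0.43 ± 0.25, adjusted p = 0.407). That value was -0.18 without S2 G1 array 6 and -0.63 without S2 G1 array 5, and passed in neither. gwl was highest in S2 G2, followed by disc G2, S2 G1 and disc G1, and S2 G1 overlapped with both disc groups.

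endos (CG6513), the target of Greatwall, gave the smallest S2 difference of the 9 genes. It read 11.84, 11.93 and 11.84 in disc G2, against 11.86, 11.97 and 11.88 in disc G1. The difference of -0.03 ± 0.08 has a 95% interval of -0.20 to 0.14. In S2 cells it read 11.0, 11.04 and 11.01 in G2, against 10.95, 11.13 and 10.96 in G1. The difference was 0.00 ± 0.08, with an interval of -0.16 to 0.17. These intervals leave out a change as large as that of gwl in S2 cells. The gates overlapped in both cell types, and the disc lay above S2 on every array.

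fzy (CG4274), the mitotic activator of the anaphase-promoting complex, had group means within 0.18 of each other. Its brightest probe set read 10.69, 10.85 and 10.78 in disc G2, against 10.82, 10.89 and 10.90 in disc G1 (-0.10 ± 0.13, adjusted p = 0.687). In S2 cells it read 10.69, 10.80 and 10.87 in G2, against 10.73, 10.97 and 10.38 in G1 (0.09 ± 0.13, adjusted p = 0.722). All 4 groups overlapped. The 95% interval was -0.38 to 0.18 in the disc and -0.18 to 0.37 in S2. The other fzy probe sets stayed under 5 on every array, with group means of 3.90 to 3.94 for one and 3.00 to 3.21 for the other, and say nothing about the gene.

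fzr (CG3000), the G1 activator of the same complex, had more RNA in G2 on every array of both cell types. It read 8.12, 7.82 and 8.10 in disc G2, against 7.42, 7.54 and 7.64 in disc G1. The groups did not overlap, and the difference was 0.48 ± 0.15 (adjusted p = 0.0658). It passed with the replicate block (adjusted p = 0.0315) and also without S2 G1 array 5 (adjusted p = 0.0315), which enters only the shared spread. With any other single array left out it did not pass (adjusted p up to 0.189). In S2 cells fzr read 7.16, 7.46 and 7.56 in G2, against 6.43, 6.92 and 6.47 in G1. This was a rise of 0.78 ± 0.15, or 1.72-fold (adjusted p = 0.0073), without overlap.

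The test of the difference between the cell types did not pass for fzr (-0.31 ± 0.21, adjusted p = 0.501). Its levels ran disc G2, disc G1, S2 G2 and S2 G1, and disc G1 overlapped with S2 G2. A further probe set names both fzr and BaraC, so its signal cannot be given to either gene. Its mean log2 intensity was 4.07 ± 0.08 in disc G2 and 4.49 ± 0.14 in disc G1, and 6.35 ± 0.08 in S2 G2 and 7.06 ± 0.43 in S2 G1 (SD, n = 3). The probe sets of fzr and endos end in _s_at, the array maker's mark for probes shared by more than 1 transcript.

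**Figure D2:**
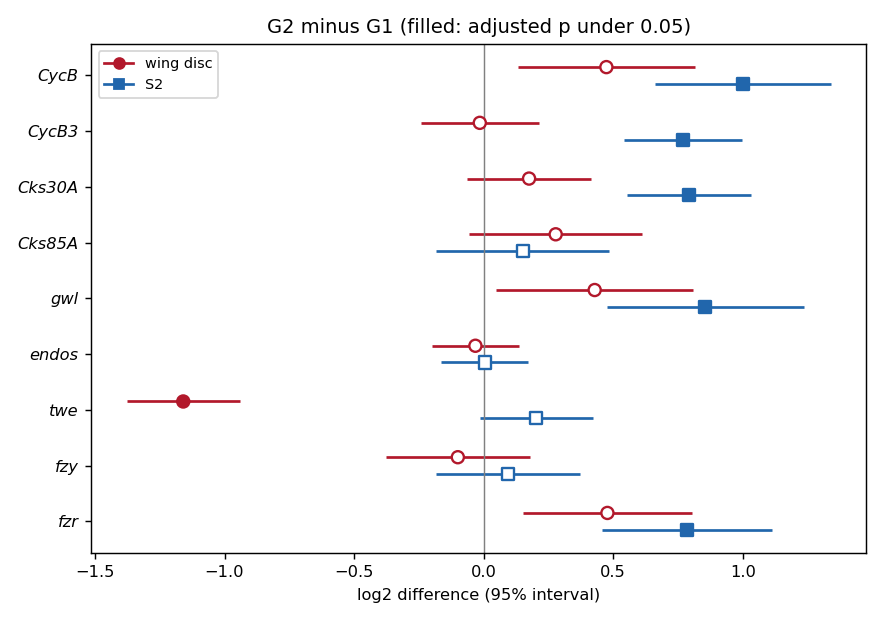
G2 minus G1 (log2) for each gene in wing disc (circles) and S2 cells (squares), with 95% intervals of the fit, filled where the adjusted p was under 0.05. The S2 values of CycB, CycB3, Cks30A, gwl and fzr lie between 0.77 and 1.0, and the disc value of twe is -1.16.

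The 9 genes were chosen with earlier results of these data known, so the counts here are a description and no test of the group. Counted over the genes, 0 of 9 rose and 1 fell in disc G2, where 10.5% of all 8580 probe sets passed. At an unadjusted p under 0.05 the count was 4 of 9, where 24.8% of all probe sets were under it, and with the replicate block 2 rose and 1 fell, where 19% of all probe sets passed. The block made CycB and fzr pass. In S2 G2, 5 of 9 rose and 0 fell, with and without the block, where 6.13% of probe sets rose (10.9% with the block). The median difference of the 9 genes was 0.18 in the disc, where all probe sets had a median of 0.05. In S2 it was 0.77, where all probe sets had 0.02. No overlap between gates, with G2 higher, was seen for 3 of 9 genes in the disc and 5 of 9 in S2, where it was seen for 21.2% and 16.1% of all probe sets. The change in disc was below that in S2 for 3 of 9 genes in the test of the difference (CycB3, twe and Cks30A), a direction in which 2.89% of all probe sets passed. The call of Cks30A was lost without any of 9 of the 12 arrays in turn. twe, also the 1 gene that fell in disc G2, passed the filter on low values through disc G1 alone. Its place in these counts follows in part from the filter.

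**Figure D3:**
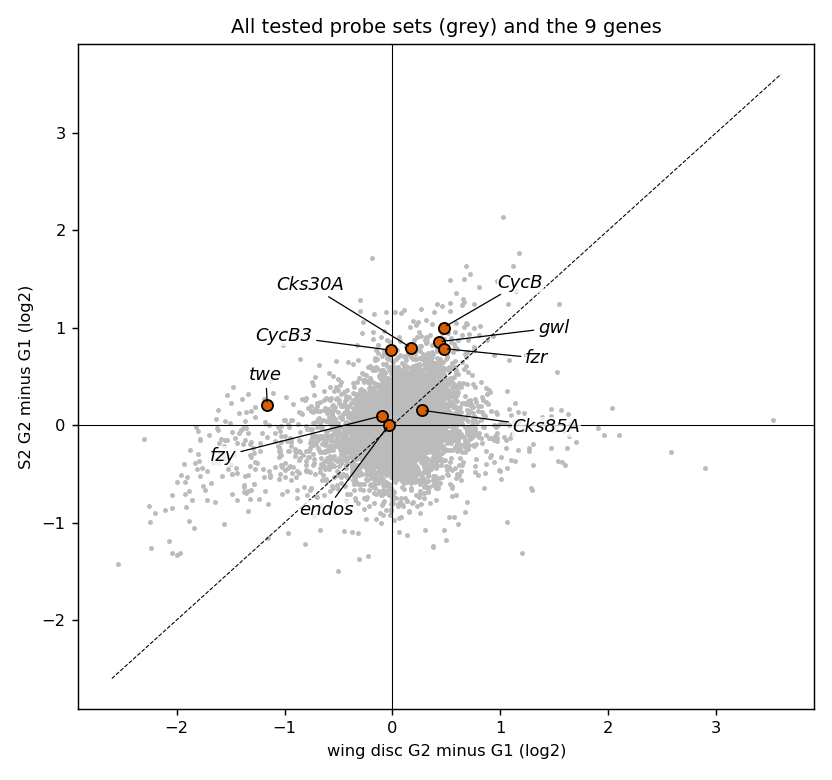
The G2 minus G1 difference (log2) in wing disc (horizontal) and in S2 cells (vertical) for 8580 probe sets (grey) and the 9 genes (orange), with a dashed line where both are equal. Cks85A lies below the line and the other genes lie above it. CycB, gwl, fzr, Cks30A and CycB3 have the larger S2 differences, and twe lies far to the left at -1.16.

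The comparison of wing disc with S2 within a gate asks whether the level of a gene differs between the cell types. In both gates endos, fzr and Cks30A were higher in the disc, and Cks85A was lower. The G2 call of Cks30A was lost in several alternatives, given below. twe reached 5 in disc G1 only. CycB and CycB3 were higher in the disc in G1, and in G2 their difference did not pass. gwl was lower in the disc in G2. Most transcripts differ between these cell types, with 76.3% of probe sets passing in G2 and 77.1% in G1, so the counts of 6 of 9 genes in G2 and 7 of 9 in G1, twe included, are near the background.

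endos was higher in disc than in S2 by 0.85 ± 0.08 in G2 (adjusted p = 6.53e-07) and by 0.89 ± 0.08 in G1 (adjusted p = 4.51e-07). Cks85A was lower in the disc, with a difference of -1.05 ± 0.15 in G2 (adjusted p = 4.64e-05) and of -1.18 ± 0.15 in G1 (adjusted p = 1.76e-05). For both genes the cell types did not overlap in either gate.

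fzr was higher in the disc by 0.62 ± 0.15 in G2 (adjusted p = 0.00241) and by 0.93 ± 0.15 in G1 (adjusted p = 0.000117). For twe, disc G1 was above S2 G1 by 1.89 ± 0.10 (adjusted p = 5.22e-09), the group through which it passed the filter. In G2 all 6 of its arrays were under 5, and the difference of 0.52 ± 0.10 compares values near background. gwl was lower in disc G2 than in S2 G2 (-0.67 ± 0.17, adjusted p = 0.00372), and in G1 its difference of -0.25 ± 0.17 did not pass (adjusted p = 0.208). It did pass in G1 without S2 G1 array 6, at -0.50 (adjusted p = 0.00145), and with array weights, at -0.38. Without S2 G1 array 5 it was -0.043 (adjusted p = 0.796).

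CycB, CycB3 and Cks30A were higher in disc G1 than in S2 G1 by 0.80 ± 0.16 (adjusted p = 0.000493), 0.89 ± 0.10 (adjusted p = 6.74e-06) and 0.90 ± 0.11 (adjusted p = 1.09e-05). In G2 the differences were 0.28 ± 0.16 for CycB, 0.11 ± 0.10 for CycB3 (adjusted p = 0.343) and 0.28 ± 0.11 for Cks30A (adjusted p = 0.0349). Over the alternatives that of CycB ran from 0.13 without S2 G2 array 4 to 0.37 after cyclic loess, where it passed. That of CycB3 ran from -0.0092 after subtraction of array medians to 0.25 after quantile normalization, where it passed. That of Cks30A lost its call after subtraction of array medians (0.16), which moved the median of all probe sets by -0.12 in G2 and -0.10 in G1, with no filter (adjusted p = 0.0632), and without any of 4 arrays in turn (disc G2 array 3 or 4, S2 G2 array 4 or 5, adjusted p up to 0.151). fzy did not pass in either gate (-0.02 ± 0.13 in G2 and 0.18 ± 0.13 in G1), and in G1 it was 0.31 without S2 G1 array 5, where it passed (adjusted p = 0.0268), and 0.020 without S2 G1 array 6 (adjusted p = 0.859).

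**Figure D4:**
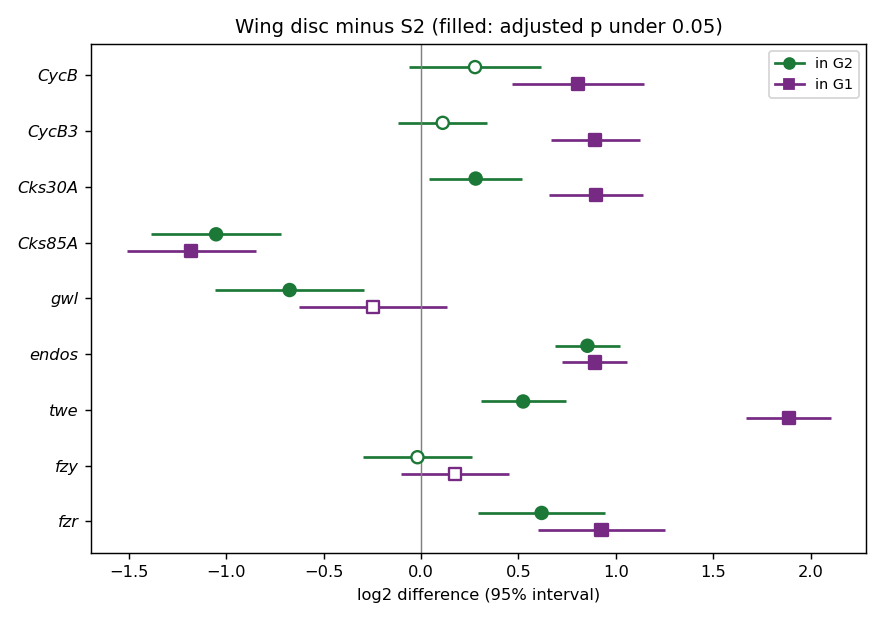
Wing disc minus S2 (log2) within G2 (circles) and within G1 (squares), with 95% intervals of the fit, filled where the adjusted p was under 0.05. For CycB and CycB3 the G1 value is filled and the G2 value open, and Cks85A is the gene furthest to the left in both gates.

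Other genes of the pathway were read from a list of 33. Of these, 23 were matched to a single-gene probe set and 22 were tested. The list was also chosen with earlier results of these data known, so the counts from it are a description. The kinase and its direct control (Cdk1, CycA, stg, Wee1, Myt1 and polo), the PP2A subunits mts and Pp2A-29B, lmg and BubR1 were not analysed here, and fzr2 was under the filter. Of the 22, 3 rose and 0 fell in disc G2, where 5.2% of probe sets rose, and 8 rose and 0 fell in S2 G2, where 6.13% rose. With the replicate block 6 rose in the disc and 9 in S2, where 11.5% and 10.9% of probe sets rose. tws, which encodes the PP2A subunit that Endosulfine acts on, gave 0.00 ± 0.12 in the disc and 0.04 ± 0.12 in S2.

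The 12 tested genes of the anaphase-promoting complex included its E2 enzyme, its inhibitor and a further activator, cort. Of the 12, 1 rose in disc G2 and 4 rose in S2 G2 (5.2% and 6.13% of all probe sets). With the replicate block 4 rose in each (11.5% and 10.9%). APC4 (CG32707), a subunit, rose in both, by 0.49 ± 0.09 in the disc (7.43 ± 0.07 in G2 and 6.94 ± 0.12 in G1, SD, n = 3; adjusted p = 0.00318) and by 0.47 ± 0.09 in S2 (adjusted p = 0.00575). The others in S2 were the subunits shtd (0.59 ± 0.14) and ida (0.49 ± 0.11) and the E2 gene vih (0.35 ± 0.07). The median of the 12 genes was 0.15 in each cell type.

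Of the 8 tested genes among targets and the spindle checkpoint, 2 rose in disc G2 and 4 in S2 G2, against the same shares of all probe sets (5.2% and 6.13%). Sse (CG10583), the separase, rose by 0.70 ± 0.11 in the disc (adjusted p = 0.00184) and by 0.87 ± 0.11 in S2 (adjusted p = 0.0012). Mps1 (CG7643), a checkpoint kinase, rose by 0.49 ± 0.10 in the disc (adjusted p = 0.00851) and by 0.99 ± 0.10 in S2 (adjusted p = 0.000327). pim (CG5052), the securin and a target of fzy, rose by 1.07 ± 0.09 in S2 (adjusted p = 0.000191). In the disc pim had 0.19 ± 0.09 (adjusted p = 0.215), and its changes differed between the cell types (-0.87 ± 0.13, adjusted p = 0.00278), as did those of mad2 (-0.67 ± 0.14, adjusted p = 0.0162). Of 5 S phase genes (CycE, PCNA, Mcm5, RnrL and dnk), 5 fell in disc G2 and 4 in S2 G2, all but Mcm5. Of all probe sets, 5.31% and 3.52% fell. These genes were chosen with earlier results of these data known, so their counts are a description and cannot test the sort.

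**Figure D5:**
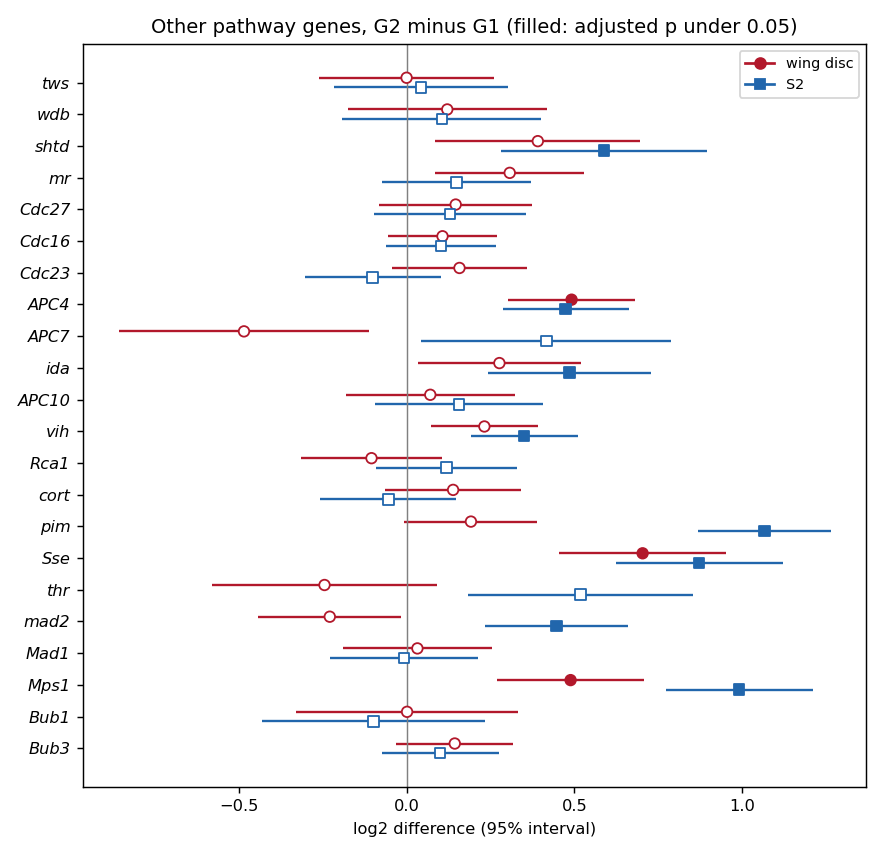
G2 minus G1 (log2) for the 22 other pathway genes tested, in wing disc (circles) and S2 cells (squares), with 95% intervals of the fit, filled where the adjusted p was under 0.05. Sse, Mps1 and APC4 are filled in both cell types, and pim is filled in S2 only, at 1.07.

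The genes whose log2 values followed each member most closely over the 12 arrays were named by Pearson correlation, as a description. The arrays form 4 groups in 2 cell types, so these values mostly carry the differences between groups. For CycB they were CG7110, CG8478 and dah (0.96 to 0.97), and for fzr Cep135, Tailor and CG4972 (0.97 to 0.98). For CycB3 they were mip130, Tsen15 and CG7110 (0.94 each), and for Cks30A ScsbetaG, Cep135 and mip130 (0.97 each). CG7110, Cep135 and mip130 each stood close to more than 1 member. For gwl they were mip120, Grip163 and Spt (0.95 to 0.98), and for twe CG6280, CG1622 and SkpA (0.97 each). endos was followed by Fs(2)Ket, Pdcd4 and CG17977, and Cks85A by Targ3, CG13994 and CG6878, all at 0.99 or above. fzy had lower values (Ipo9, CG9776 and Cp190, 0.78 each).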

How the data were processed

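The authors deposited a linear intensity for each probe set and array, made with RMA in R 2.15.2, per the submitters' processing notes. Which background method and array normalization RMA used is not given in the sources used here. Their table held 18952 probe sets on 12 arrays, of which 183 controls were left out, and 0 pairs of arrays held identical values. log2 was taken, and probe sets with a value of at least 5 on at least 3 arrays were kept (8580). Genes come from the platform annotation of the array. All 12 arrays entered a limma 3.58.1 fit in R 4.3.3 (lmFit, then eBayes) with a mean for each group and a shared spread, on 8 residual plus 3.52 prior degrees of freedom. Tests were two-sided, with Benjamini-Hochberg adjustment over the 8580 probe sets, and an adjusted p under 0.05 passed. The fit was tested on simulated data with independent noise on every array. That test does not cover same-numbered arrays that deviate together. Arrays give no counts, and their number limits the precision. Tables and plots used Python 3.11.15, pandas 2.3.3 and matplotlib 3.10.9.

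The members and gene lists were chosen with earlier results of these data known. Genes were named by rule: the 9 members, the pathway genes with the 3 smallest p among those that passed in each phase contrast, and the 3 genes most like each member. Other pathway genes that passed, and tws and mad2, were named after their values were seen. Deviations from group means of same-numbered G2 and G1 arrays had correlations of 0.31 to 0.52 (6 pairs). On this basis the numbers were taken to pair the samples in the replicate block. The main fit leaves this pairing out, and the disc calls of CycB and fzr depend on which of these fits is used. Arrays with different numbers had -0.50 to 0.01 (12 pairs). As deviations cancel within a group, these values are pushed down where the same-numbered ones are positive, and are no separate support. No sequences or coordinates were used. Alternatives were no filter, 3 other scalings, array weights, an intensity trend or robust prior, a replicate block, fits of the compared groups alone, and leaving out each array.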

Additional observations from a re-analysis of the deposited data

Results flagged for a closer look

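For 3 genes the change between gates differed between the cell types in the test of the difference itself (disc change minus S2 change). For CycB3 the value was -0.78 (adjusted p = 0.0105), from -0.01 in the disc and 0.77 in S2. For twe it was -1.36 (adjusted p = 0.000539), from -1.16 in the disc and 0.20 in S2. This gene passed the filter through disc G1 alone and lies under 5 in the other 3 groups, so the difference follows in part from the filter and its size is uncertain (adjusted p = 0.000405 with no filter). For Cks30A it was -0.62 (adjusted p = 0.0431), from 0.18 in the disc and 0.79 in S2. This call was lost without any of 9 of the 12 arrays in turn (adjusted p up to 0.108).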

How the results depend on the processing

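The number of probe sets passing in the disc was 902, against 1626 with the replicate block, 2043 with array weights, and 601 (without disc G1 array 4) to 1152 when 1 array was left out. In S2 it was 828, against 1577 with the block, 1645 with array weights, 413 with the S2 groups alone, and 493 to 1088 when 1 array was left out (lowest without S2 G1 array 4 or any S2 G2 array). For the difference of changes it was 438, against 949 with the block, 1151 with array weights, and 281 to 586 when 1 array was left out (lowest without disc G2 array 4, disc G1 array 4, S2 G2 array 5 or S2 G1 array 4). Of the 9 genes 1 passed in the disc, against 3 with the block, 4 with array weights and 4 with the disc groups alone (CycB, fzr, gwl and twe in both of these), and 1 to 3 when 1 array was left out (more without S2 G2 array 4, S2 G1 array 5 or S2 G1 array 6). In S2, 5 passed with every array left out in turn, and 4 to 5 in the other alternatives (gwl was lost with the S2 groups alone). The block changed no other call on the 9 genes, and for the comparisons of wing disc with S2, which share fewer than 2 numbers, a random block was used and changed none.

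Signs turned only for differences near 0 that did not pass. endos in S2 had -0.0275 after cyclic loess and -0.0246 to 0.0626 when 1 array was left out, and 0.0061 in the difference of changes after cyclic loess. CycB3 in the disc had 0.0142 after subtraction of array medians, 0.0168 with array weights and -0.0397 to 0.0149 when 1 array was left out, and -0.0092 for disc minus S2 in G2 after subtraction of array medians. fzy for disc minus S2 in G2 had 0.0563 after cyclic loess, 0.0415 after quantile normalization and -0.0689 to 0.0239 when 1 array was left out, and in S2 -0.0615 to 0.232 when 1 array was left out. Cks85A in the difference of changes had -0.0028 to 0.263 when 1 array was left out. Of the calls in the report, that of Cks30A in the difference of changes was also lost with no filter (adjusted p = 0.0702) and after subtraction of array medians (adjusted p = 0.0547). The causes were not tested. twe lies near background in 3 of the 4 groups, which limits its size.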
